A study of Mus musculus with 2 samples.

Results

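Msmb-rich cells of the ventral mouse prostate were the barcodes of the ventral library that held at least 500 genes, drew 0.5 to 10% of their counted RNA molecules (unique molecular identifiers, UMIs) from mitochondrial genes, and took at least 1% of their UMIs from Msmb. They were thus chosen by their measured Msmb level, and what separates them from other cells in these data is a description. The rule found 89 cells among 1939 ventral barcodes within the gene and mitochondrial limits, out of 2221 ventral barcodes and 6565 barcodes in the series. They made up 4.59% of the ventral barcodes within the limits (exact 95% binomial interval 3.70 to 5.62%, counting error only, as for all intervals here). The study profiled dissociated prostate tissue of wild-type male C57BL6 mice with the 10x Genomics 3' single-cell assay. It held 2 libraries, 1 of the ventral lobes and 1 of the proximal and periurethral region, the stretch of the gland next to the urethra. Age, number of animals and pooling are not given in the sources used here. With 1 library for each region there is no replicate check, so every difference is a description of these libraries and carries no p-value. The ventral cells were captured with kit version 2 but the proximal cells with kit version 3, and hence region, kit version and library cannot be told apart.

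Msmb encodes beta-microseminoprotein, a small protein that luminal cells of the prostate secrete into seminal fluid. Luminal cells line the ducts of the gland, depend on androgens, and make different secretory products in different lobes and stretches of the duct. The ventral lobe of rodents is known for spermine-binding protein (Sbp) and the serine protease inhibitor Spink1, while probasin (Pbsn) is the classic androgen-regulated secretory gene of the dorsal and lateral lobes, and its promoter is widely used to drive transgenes in prostate epithelium. Beta-defensins, such as those encoded by Defb50 and Defb1, are small cationic antimicrobial peptides that epithelia secrete.

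The comparison group was the 1612 ventral cells with more than 5% of their UMIs from Sbp and Spink1 together and less than 1% from Msmb, called Sbp- and Spink1-rich cells here. The remaining 238 ventral barcodes within the limits belonged to neither group, and 39 of these carried at least 5 UMIs of immune genes and served as a measure of free RNA, since such cells should make no prostate secretions. The Msmb-rich cells held a median of 24295 UMIs and 3699 genes, and the Sbp- and Spink1-rich cells 27418 UMIs and 3459 genes. The immune barcodes were shallower, with a median of 3683 UMIs. In all, the ventral matrix held 49356586 UMIs and the proximal matrix 97817603, over the same 32285 genes, and the libraries shared 0 cell barcodes.

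Msmb took 1.08% of UMIs in the lowest Msmb-rich cell, 4.31% in the median cell and 10.7% in the highest. The lowest 3 cells inside the threshold stood at 1.08, 1.11 and 1.12%, and the highest 3 barcodes outside it at 0.874, 0.863 and 0.525%. Few barcodes lay near the line: 7 had 1 to 1.5% Msmb, 15 had 0.1 to 1%, and 1835 had less than 0.1%. Sbp and Spink1 together spread far more among the Msmb-rich cells, from 0.830% through a median of 3.58% to 38.2%. Of the 89 cells, 46 had at most 5% of their UMIs from Sbp and Spink1, and 43 had more, 17 of them over 20%. Those 43 met the Sbp and Spink1 limit of the comparison group as well as the Msmb limit, and they are described separately further on.

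**Figure D1:**
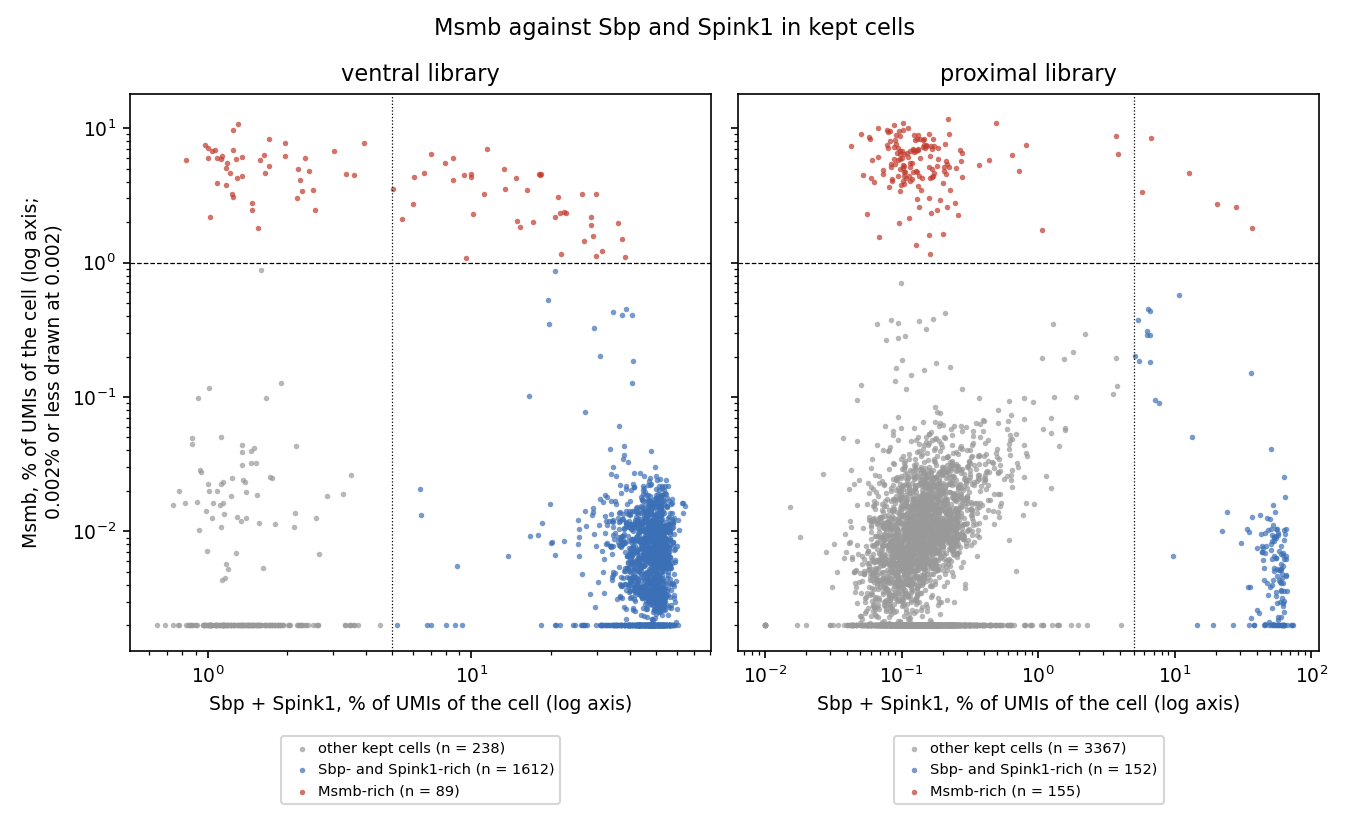
Share of each barcode's UMIs from Msmb (vertical, percent, log axis) against the share from Sbp and Spink1 together (horizontal, percent, log axis) in the ventral library (left) and the proximal library (right); 1 point is 1 barcode within the limits, the dashed line is 1% Msmb, the dotted line 5% Sbp and Spink1, and shares of Msmb at or below 0.002% are drawn at 0.002%. In the ventral library the 89 Msmb-rich cells extend from 0.830 to 38.2% Sbp and Spink1, while in the proximal library 6 of 155 Msmb-rich cells lie over 5%.

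The cells carried the luminal markers and the other genes named with Msmb. Defb50 had a UMI in 89 of 89 cells and Pbsn in 86 of 89. The luminal keratin Krt18 had a UMI in 89 of 89 cells and its partner Krt8 in 88 of 89, and Hoxb13, a homeobox gene of prostate epithelium, in 87 of 89. In the immune barcodes Krt18 had a UMI in 5.13% of cells, Krt8 in 2.56% and Hoxb13 in 5.13%. Defb50 had a UMI in 66.7% of the immune barcodes and 99.8% of the Sbp- and Spink1-rich cells, so its detection alone marks no cell, while Pbsn had one in 0 of 39 and 30.3%. The keratins match the luminal label, and Msmb was fixed by the rule.

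Levels below are UMIs summed over the cells of a group, as UMIs per 1000000 UMIs of that group (CPM). A gene was compared where the mean of both groups' CPM was at least 10, and was counted as higher or lower where the log2 ratio of CPM + 10 reached 2-fold and the exact interval of the ratio excluded 1. A gene that passes the limit on low levels only through the group where it is high is bound to stand higher there, which bears on every count of list members below. The pseudocount of 10 makes the log2 ratio understate the change of low genes, so the plain ratio of CPM is given as well. Since Sbp and Spink1 took up a median of 47.8% of the UMIs of a cell in the comparison group, every ratio was also computed over UMIs without Msmb, Sbp and Spink1. This other scaling shifted the median log2 ratio of all genes from 0.25 to -0.27.

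Against the Sbp- and Spink1-rich cells, 193 of 5630 genes were at least 2-fold higher in the Msmb-rich cells (3.43%) and 49 were at least 2-fold lower (0.87%). Without Msmb, Sbp and Spink1 in the totals, 85 of 7024 genes were higher (1.21%) and 260 lower (3.7%), so that the share of these genes that were higher went from 79.8% to 24.6%. The rule chose the cells on this contrast, and nothing is read from these counts. Each of the 24 genes named next, the 12 with the highest and the 12 with the lowest log2 ratios among genes found in at least 25% of the cells of the higher group, kept its direction in both scalings.

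Msmb itself, the gene of the rule, stood at 42700 CPM (42434 to 42967) in the Msmb-rich cells and at 94.7 CPM (91.8 to 97.6) in the Sbp- and Spink1-rich cells. Its 94.7 CPM in the latter compared with 63.8 CPM (30.6 to 117) in the immune barcodes. These were shallower, with a median of 3683 UMIs against 27418, so like CPM there means fewer Msmb UMIs per barcode. The part of free RNA in the level outside the Msmb-rich cells was not tested.

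Pbsn, a lipocalin secreted under androgen control, stood at 6284 CPM (6182 to 6387) in the Msmb-rich cells, with 0 in the lowest cell, 2912 CPM in the median cell and 46179 CPM in the highest. In the Sbp- and Spink1-rich cells it stood at 15.1 CPM (14 to 16.3), with a UMI in 488 of 1612 cells. The ratio was 416-fold (385 to 450), or 7.97 on the log2 scale. The 3 Msmb-rich cells without a Pbsn UMI show that the lower end of its range overlapped the other group, although the median cells were far apart. In the immune barcodes Pbsn had 0 UMIs, which with their shallow depth allows up to 23.5 CPM.

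Short stretches before the RefSeq start of Pbsn are shown because the androgen response of this gene is what it is known for. The Pbsn gene lies on the minus strand of chromosome X, at chrX:77837901-77853623 in GENCODE M21 on GRCm38. The first stretch, at chrX:77853580-77853605, carries in capitals the 6 bases AGAACA, the core hexamer of androgen and glucocorticoid response elements, 95 to 90 bases before the RefSeq start. The second, at chrX:77853544-77853569, carries in capitals a TATA box, TATAAA, 59 to 54 bases before it. Both are RefSeq sequence of build GRCm38.p6 on the minus strand, and both lie inside the gene as GENCODE M21 draws it, where 123 of the 250 bases before this start are annotated as exon.
Pbsn hexamer: actgggatgcAGAACActgctcacgc
Pbsn TATA box: gaaagccaacTATAAAaagcagagag
Across the 250 bases before 32851 RefSeq starts of 27025 genes, searched on both strands, AGAACA was found before 5284 starts, or 16.1%. The letters TATAAA were found before 4063 starts, or 12.4%. Neither motif occurred in the same window before Rnase1. A match is a description of the letters and not of a bound site.

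Beta-defensin transcripts took up a large share of these cells' UMIs. Defb50 stood at 140221 CPM (139738 to 140705) in the Msmb-rich cells, with 32541 CPM in the lowest cell, 142403 in the median cell and 242936 in the highest. In the Sbp- and Spink1-rich cells it stood at 2990 CPM (2974 to 3007), with a median cell of 1179 CPM and a highest of 90888. The ratio was 46.9-fold (46.6 to 47.2), with single cells overlapping. The immune barcodes stood at 306 CPM, below the Sbp- and Spink1-rich cells.

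Defb1, which encodes an antimicrobial peptide that many epithelia make constitutively, stood at 3893 CPM (3813 to 3974) and had a UMI in 89 of 89 Msmb-rich cells. Its lowest, median and highest cells were at 320, 3496 and 10560 CPM. In the Sbp- and Spink1-rich cells it stood at 16.5 CPM (15.3 to 17.7), with a UMI in 23.4% of cells, a 236-fold difference (219 to 255).

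The defensin genes with the highest levels lay side by side on chromosome 8. GENCODE M21 places AY761184 at chr8:21702519-21703645, Defb1 at chr8:21776599-21795185, Defb50 at chr8:21823539-21831296, Defb2 at chr8:21839926-21843482 and Defb10 at chr8:21858901-21862011, all on the plus strand but AY761184. Of 6 genes in this window of 159 kb, 5 passed the limit on low levels. AY761184, Defb10 and Defb2 passed it only through the Msmb-rich cells, so nothing is read from how many were higher. The window was also chosen after these values were seen, and its values are a description. AY761184 stood at 138 CPM (123 to 154) against 0.608, a 227-fold difference (153 to 350). Defb10 stood at 55.9 CPM (46.7 to 66.5) against 1.87, a 29.9-fold difference (22.5 to 39.9). Defb2 stood at 33.8 against 6.94 CPM, or 4.88-fold (3.75 to 6.27).
The 250 bases before the RefSeq start of Defb10, at chr8:21858651-21858900 on the plus strand of GRCm38.p6, are shown as the 1 defensin of the window whose start was in the promoter table used here, with AGAACA in capitals, 234 to 229 bases before the start. No TATAAA occurred in them.
Defb10 start: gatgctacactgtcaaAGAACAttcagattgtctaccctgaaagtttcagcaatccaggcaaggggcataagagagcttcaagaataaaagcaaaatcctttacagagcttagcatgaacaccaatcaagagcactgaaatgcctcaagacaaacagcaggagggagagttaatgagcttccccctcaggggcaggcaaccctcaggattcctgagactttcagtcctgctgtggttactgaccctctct
Outside the window the defensins were at or near 0. Of 42 Defb genes listed, 7 had a UMI in the Msmb-rich cells and 35 were at 0, where 3 UMIs would be 1.30 CPM. The 4 that passed the limit on low levels were Defb50, Defb1, Defb2 and Defb10. Reads of near-identical defensin copies may have been split or dropped in the authors' counting, so the lowest of these levels are uncertain.

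**Figure D2:**
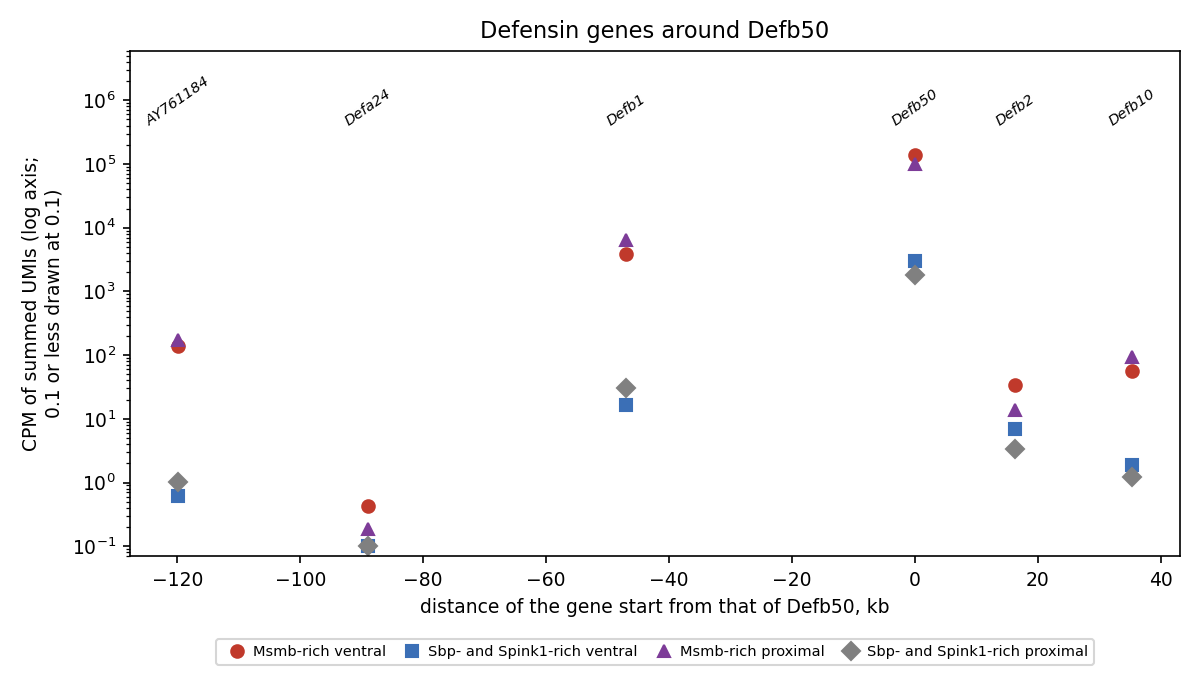
Level of 6 genes of the defensin window (vertical, CPM, log axis) against the distance of each gene's start from that of Defb50 (horizontal, kb) in 4 groups of cells: Msmb-rich and Sbp- and Spink1-rich cells of the ventral and of the proximal library; levels at or below 0.1 CPM are drawn at 0.1. Defb50, Defb1, AY761184 and Defb10 stand higher in the Msmb-rich than in the Sbp- and Spink1-rich cells of both libraries.

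Rnase1, a secreted ribonuclease, stood at 356 CPM (332 to 381) against 0.563 (0.364 to 0.831), a 631-fold difference (425 to 982). It was found in 75 of 89 Msmb-rich cells and in 23 of 1612 Sbp- and Spink1-rich cells. Wfdc3, a member of the whey acidic protein family of protease inhibitors, stood at 6612 CPM (6507 to 6718) against 1039 (1030 to 1049), a 6.36-fold difference (6.25 to 6.48). Its levels overlapped: 2380, 6802 and 12408 CPM in the lowest, median and highest Msmb-rich cells, and 0, 233 and 10120 CPM in the other group. Cst3, the secreted cysteine protease inhibitor cystatin C, stood at 634 against 89.2 CPM, or 7.10-fold (6.69 to 7.55).

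The other genes among the 12 with the highest ratios have varied roles. Pcp4, a regulator of calmodulin, stood at 136 CPM (122 to 152) against 1.67, an 81.7-fold difference (63.2 to 107), but was found in only 37 of 89 Msmb-rich cells. Mgll, a lipase of monoacylglycerols, stood at 122 against 4.89 CPM (25-fold, 20.9 to 30). Snhg18, a long non-coding RNA that hosts a small nucleolar RNA, stood at 490 against 28.5 CPM (17.2-fold, 15.8 to 18.6). The class I histocompatibility gene H2-Q10 stood at 504 against 57.6 CPM (8.76-fold, 8.16 to 9.39). Its sequence is close to that of other class I genes, so its count may include theirs. Gsto1, a glutathione transferase, stood at 186 against 20.1 CPM (9.24-fold, 8.21 to 10.4).

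Dcn, which encodes decorin, a matrix proteoglycan best known from fibroblasts, was the 1 gene of the 12 that belongs to the marker list of another cell type. It stood at 349 CPM in the Msmb-rich cells, with a UMI in 82 of 89, against 43.6 CPM, an 8.00-fold difference (7.36 to 8.69). Of the other 6 fibroblast markers, Col1a1, Col1a2, Col3a1, Lum and Pdgfra were at 0 UMIs in the Msmb-rich cells, and Sparc was at 1.30 CPM. The sum of the fibroblast list ran over 0, 271 and 1802 CPM in the lowest, median and highest Msmb-rich cells, and over 0, 2917 and 21277 CPM in the 238 other ventral barcodes.

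**Figure D3:**
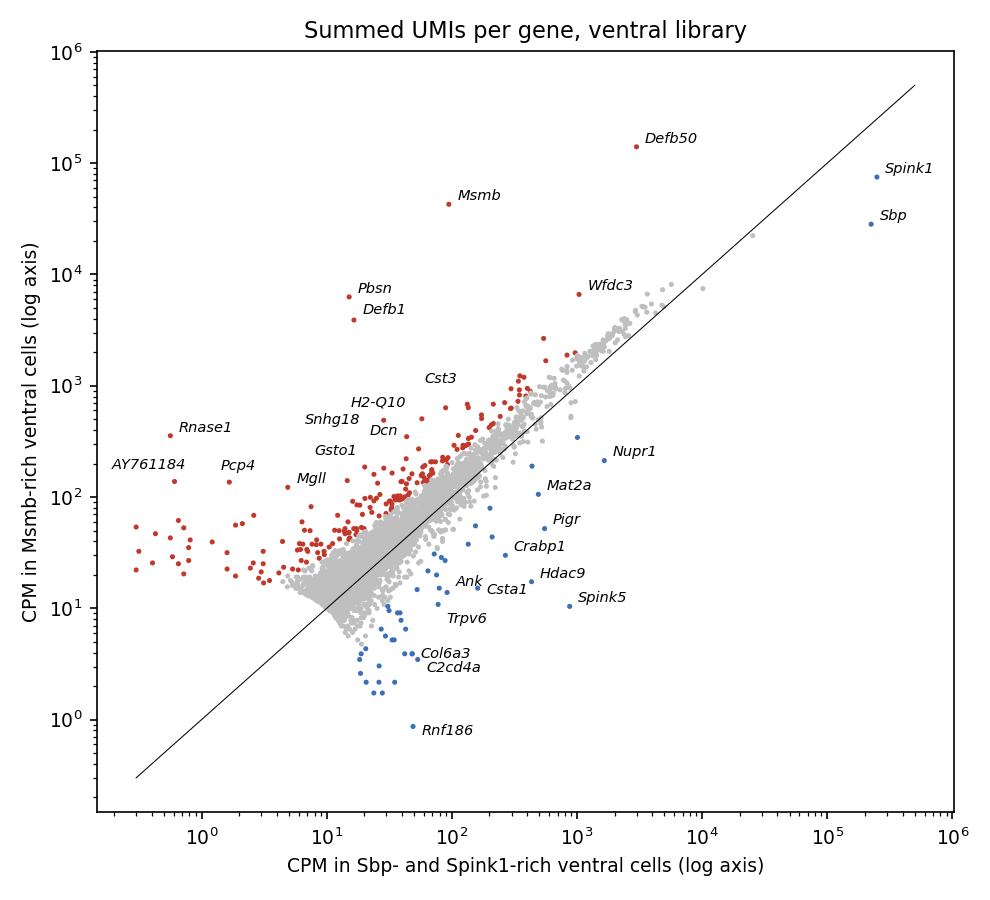
Level of each gene compared (CPM, log axes) in the Msmb-rich cells (vertical) against the Sbp- and Spink1-rich cells (horizontal) of the ventral library; red points are the 193 genes counted as higher, blue points the 49 counted as lower, grey points the rest, the line marks equal levels, and levels below 0.3 CPM are drawn at 0.3. Rnase1, Msmb, Pbsn and Defb1 lie far above the line and Spink5 far below it.

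The genes with the lowest ratios, which were higher in the Sbp- and Spink1-rich cells, included protease inhibitors and secretory genes. Sbp and Spink1 themselves chose that group: Sbp stood at 28279 against 224288 CPM and Spink1 at 75071 against 249671 CPM. Spink5, a relative of Spink1 that inhibits kallikrein-type proteases, stood at 10.4 CPM (6.67 to 15.5) against 874 (866 to 883), 84.0-fold lower (56.4 to 131). It had a UMI in 22 of 89 Msmb-rich cells and in 957 of the 1612 others, whose median cell stood at 32.3 CPM and highest at 18932. Csta1, an inhibitor of cysteine proteases, stood at 15.2 against 161 CPM (10.6-fold lower, 7.62 to 15.2). Pigr, the receptor that carries antibodies across epithelia into secretions, stood at 52.0 against 551 CPM (10.6-fold lower, 8.85 to 12.8). Neither Spink5 nor Pigr was particular to the Sbp- and Spink1-rich cells. In the 238 other ventral barcodes they stood at 114% and 72.0% of the level of those cells.

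Hdac9, a class IIa histone deacetylase, stood at 17.3 CPM (12.4 to 23.6) against 434, 25-fold lower (18.4 to 35), and was found in 16 of 89 against 1578 of 1612 cells. Nupr1, a stress-induced nuclear protein, stood at 212 against 1654 CPM (7.78-fold lower, 7.12 to 8.52). Crabp1, which binds retinoic acid in the cytoplasm, stood at 29.9 against 268 CPM (8.96-fold lower, 7.07 to 11.5). All 3 kept a level above 0 in the Msmb-rich cells. As a share of the level of the Sbp- and Spink1-rich cells, Hdac9 stood at 4.00% there and at 10.3% in the immune barcodes. Nupr1 stood at 12.8% and 3.47%, and Crabp1 at 11.2% and 2.38%. Of the Hdac9 UMIs of the Msmb-rich cells, 27.5% came from 1 cell. The part of free RNA in these levels was not tested.

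Mat2a, the enzyme that makes S-adenosylmethionine, stood at 106 against 492 CPM (4.65-fold lower, 4.10 to 5.29). Ank, a membrane transporter linked to pyrophosphate, stood at 13.9 against 91.7 CPM (6.61-fold lower, 4.67 to 9.67), and the calcium channel gene Trpv6 at 10.8 against 77.7 CPM (7.17-fold lower, 4.85 to 11.1). Rnf186, a ubiquitin ligase of epithelia, C2cd4a and the collagen gene Col6a3 were at or near the limit of detection in the Msmb-rich cells. Rnf186 had 2 UMIs there, 0.867 CPM against 49.0 CPM, a ratio of 56.5 with an interval of 15.6 to 467. C2cd4a stood at 3.47 against 53.4 CPM and Col6a3 at 3.90 against 48.3 CPM.

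**Figure D4:**
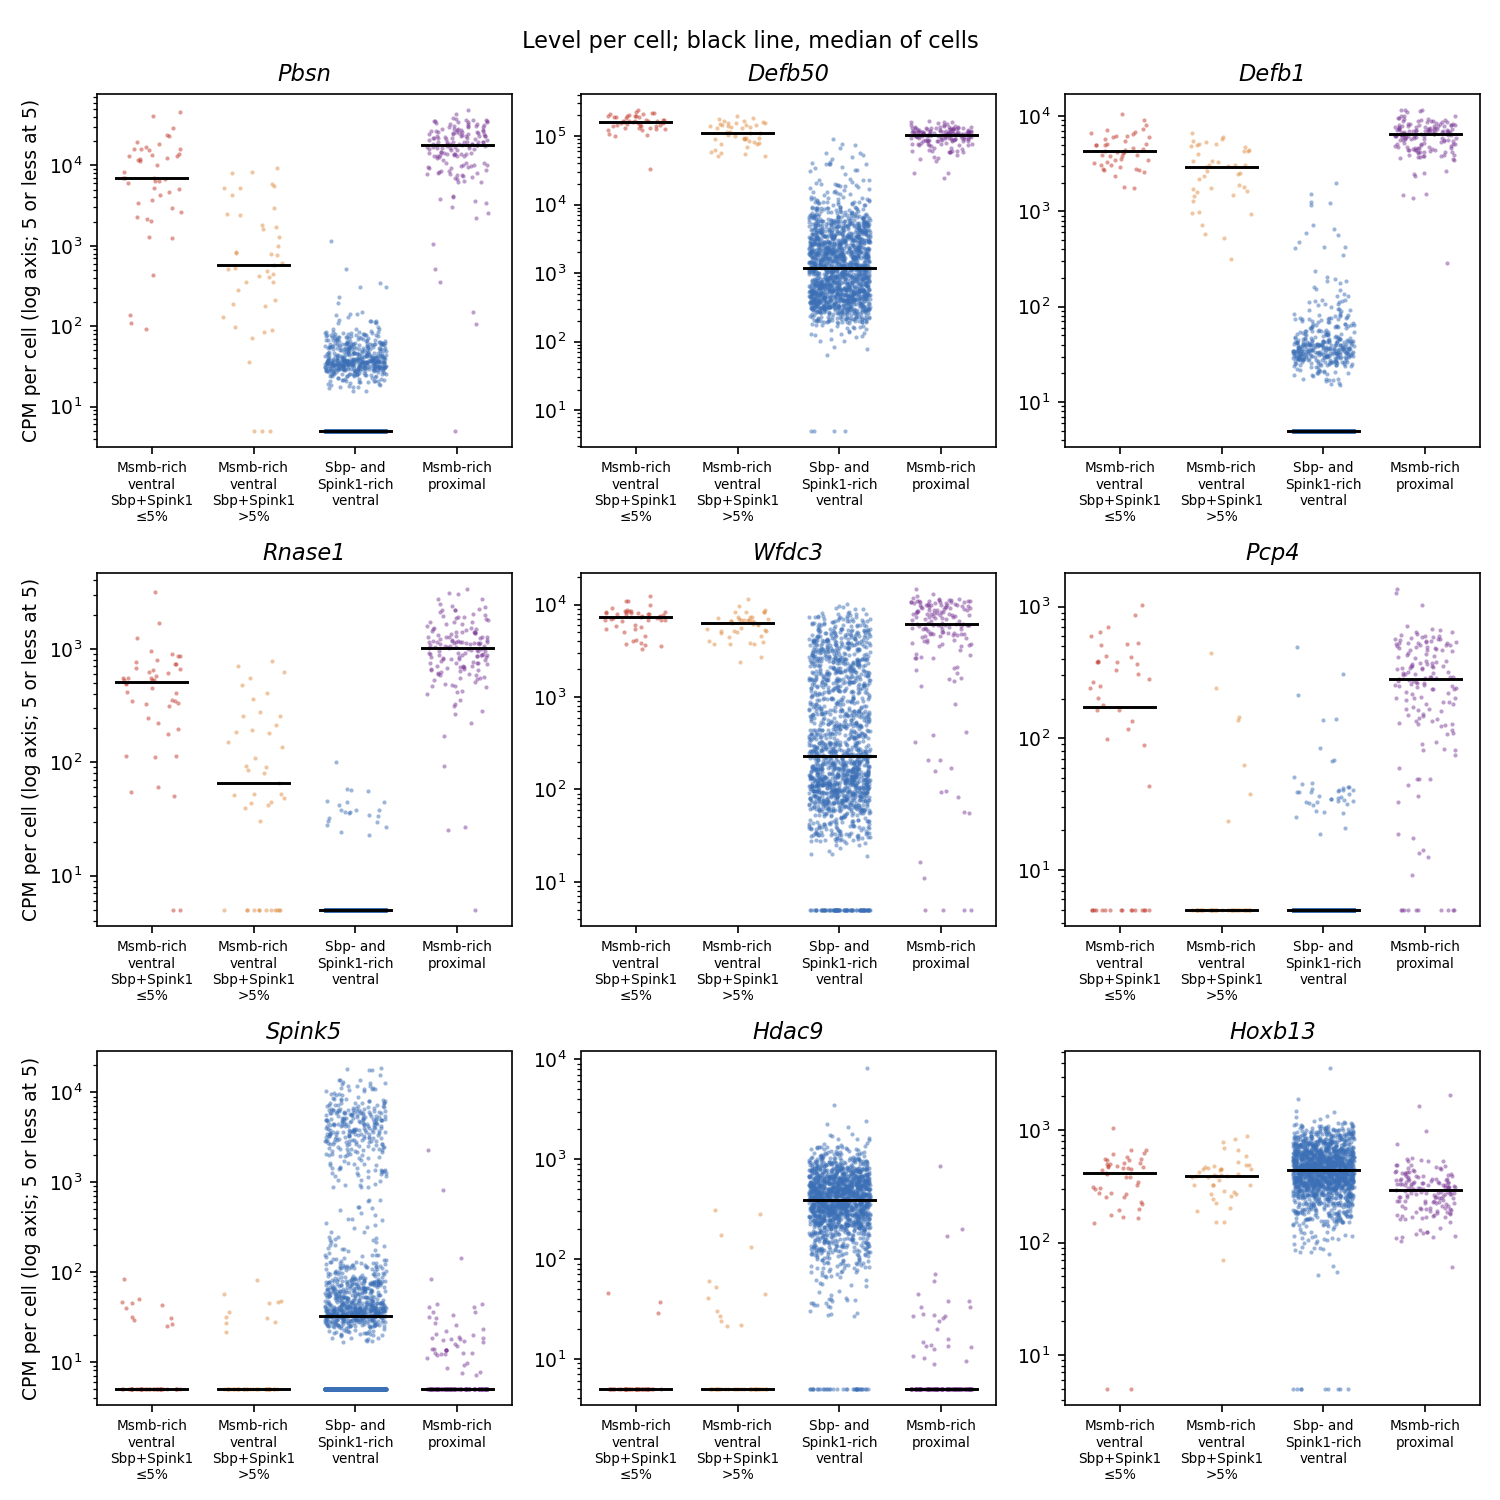
Level of 9 genes in single cells (CPM, log axis, levels at or below 5 CPM drawn at 5) in 4 groups: ventral Msmb-rich cells with at most 5% and with more than 5% of UMIs from Sbp and Spink1, ventral Sbp- and Spink1-rich cells, and proximal Msmb-rich cells; 1 point is 1 cell and black lines are medians. Defb50, Defb1 and Wfdc3 stand high in all 3 Msmb-rich groups, Pbsn differs among them with medians of 7034, 583 and 17826 CPM, and Hoxb13 lies at a like level in all 4.

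Genes of luminal identity differed little. Of 13 luminal genes compared, 0 were higher and 0 lower, with a median log2 ratio of 0.02 beside 0.25 over all genes. In the other scaling 0 were higher and 2 lower, with a median of -0.66 beside -0.27. Krt18 stood at 969 against 677 CPM, Krt8 at 368 against 364, Epcam at 264 against 237 and Cd24a at 116 against 160. None of these reached a 2-fold difference over all UMIs, and the direction of Krt18 (log2 0.51 and -0.18 in the other scaling), Krt8 (0.02 and -0.67) and Epcam (0.15 and -0.53) depended on the scaling.

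Of genes linked to androgens or to the prostate lineage, Hoxb13 stood at 408 against 473 CPM, not 2-fold apart. Fkbp5, a co-chaperone induced by androgens and glucocorticoids, stood at 196 against 92.1 CPM, just past 2-fold, and Homer2, a scaffold protein gene, at 52.0 against 17.3 CPM. Neither reached 2-fold in the other scaling (log2 0.37 for Fkbp5 and 0.73 for Homer2). The pioneer factor gene Gata2 was low throughout: it had a UMI in 19 of 89 Msmb-rich cells and 6 of 1612 others, at 14.3 against 0.135 CPM, and its mean level was under the limit for comparison.

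Of 23 genes for protein folding in the endoplasmic reticulum, 11 were at least 2-fold higher and 0 lower, beside 3.43% and 0.87% of all genes, with a median of 0.91 beside 0.25. In the other scaling 1 was higher, beside 1.21%, with a median of 0.35 beside -0.27. Pdia6, a disulfide isomerase, stood at 1227 against 350 CPM (log2 1.78, and 1.10 in the other scaling), and the chaperone gene Calr at 1677 against 564 CPM (1.56 and 0.87). The main chaperone of this compartment, Hspa5, stood at 1870 against 1004 CPM (0.89) and did not reach 2-fold. Of 23 genes for the translocation of secreted proteins, 1 was higher, Tmed3, a cargo adaptor at 1098 against 340 CPM (1.66 and 0.98), and 0 in the other scaling, a share near that of all genes.

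Of 9 genes of the prolactin receptor and its Stat5 arm, 4 passed the limit on low levels and 2 of these were higher. Both passed it only through the Msmb-rich cells, so nothing is read from the count: Stat5a stood at 38.2 against 6.06 CPM (log2 1.58) and Stat5b at 22.1 against 5.92 CPM (1.01), while Prlr stood at 154 against 94.3 CPM (0.66) and did not reach 2-fold. In the other scaling 1 of 4 was higher. Of 10 genes of growth factor signalling, a list of ligands, binding proteins and receptors, 2 were higher and 0 lower, beside 3.43% and 0.87% of all genes. Wnt4 stood at 68.5 against 2.61 CPM (2.64) and Bmp7 at 37.7 against 6.44 CPM (1.54). Both passed the limit on low levels only through the Msmb-rich cells, so nothing is read from this count. In the other scaling 2 of 11 were higher and 2 lower, beside 1.21% and 3.7%.

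The counts in the next lists are read beside 3.43% of all genes higher and 0.87% lower, or 1.21% and 3.7% in the other scaling. Of 13 genes of salt and water transport, 1 was higher, the water channel gene Aqp5 at 82.0 against 7.50 CPM (2.39), and 2 were lower, the calcium channel gene Trpv6 and the anion exchanger gene Slc26a4 (log2 -1.26). Without Msmb, Sbp and Spink1 in the totals, 1 of 14 was higher and 4 were lower, with a median of -0.51 beside -0.27 over all genes. Of 12 zinc genes 1 was higher, the transporter Slc30a10 at 25.6 against 0.405 CPM (1.77). Aqp5 and Slc30a10 both passed the limit on low levels only through the Msmb-rich cells. Of 14 citrate genes 0 were higher and 0 lower, with a median of 0.44 (-0.14 over 16 genes in the other scaling), although the prostate is known for secreting zinc and citrate. Of 15 polyamine genes 1 was lower (2 of 16 in the other scaling), Mat2a, whose product also feeds the making of spermine.

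Of 10 protease inhibitor genes 4 were higher and 2 lower, beside 3.43% and 0.87% of all genes, and in the other scaling 4 and 2 of 11, beside 1.21% and 3.7%. Beside Wfdc3 and Cst3, the higher ones were Spink8 at 39.5 against 1.22 CPM (2.14) and Timp3, an inhibitor of matrix proteases, at 37.7 against 8.99 CPM (1.33). The lower ones were Spink1, a gene of the rule, and Spink5. Spink8 and Timp3 passed the limit on low levels only through the Msmb-rich cells, so nothing is read from these counts. Of 8 secreted or lysosomal enzyme genes 3 were higher and 0 lower, and in the other scaling 2 of 9 were higher and 1 lower. The 3 were Rnase1, the matrix protease gene Mmp7 at 25.2 against 0.653 CPM (1.72), and the lysosomal protease gene Ctsd at 345 against 143 CPM (1.21). Rnase1 and Mmp7 passed the limit on low levels only through the Msmb-rich cells, so nothing is read from this count either.

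Genes known to respond to tissue dissociation differed little between the groups. Of 24 immediate early and heat-shock genes compared, 0 were higher and 0 lower, with a median of 0.17 (0 higher and 2 lower in the other scaling), and the sum of the list ran over 1553, 7672 and 21858 CPM in the lowest, median and highest Msmb-rich cells against 602, 6914 and 42283 CPM in the others. Of 6 interferon genes 0 were higher and 0 lower (median -0.30), and in the other scaling 4 of 9 were lower, with a median of -0.92 beside -0.27 over all genes, of which 3.7% were lower. Of 6 genes of antigen presentation 1 was higher in both scalings, beside 3.43% and 1.21% of all genes: B2m, the light chain of class I molecules, at 2661 against 542 CPM (2.28). None of 6 nuclear long non-coding RNAs and 4 glycosylation genes reached 2-fold (1 of the 6 RNAs was lower in the other scaling), and the summed cell cycle genes had a median of 28.5 CPM per Msmb-rich cell against 33.1 CPM.

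Markers of several other cell types were at 0. All 7 T and NK cell markers and all 7 seminal vesicle genes found in the files were at 0 UMIs in the Msmb-rich cells, as were all 6 anterior-type luminal genes, 5 of 6 endothelial, 5 of 8 macrophage and 4 of 6 smooth muscle markers. The basal factor Trp63 was at 0 UMIs, where 3 UMIs would be 1.30 CPM, and the sum of the basal list stood at a median of 72.9 CPM per cell against 59.8 CPM in the Sbp- and Spink1-rich cells and 2847 CPM in the other ventral barcodes. The endothelial marker not at 0 was Pecam1, at 33.0 against 11.7 CPM with a UMI in 26 of 89 and 240 of 1612 cells, which did not reach 2-fold. The sum of the macrophage list was above 0 in 8 of 89 cells. The periurethral markers Krt13, Ly6d, Aqp3 and Upk3a were also at 0. Of 10 proximal luminal markers, Psca and Aldh1a3 were at 0 and the other 8 had UMIs. Their sum was above 0 in 78 of 89 cells, at 92.2 CPM in the median and 4295 CPM in the highest, beside a median of 78.4 CPM and a highest of 4736 CPM in the Sbp- and Spink1-rich cells. Of the 2 compared, Cyp2f2, a cytochrome P450 gene, was higher at 80.7 against 22.2 CPM and Clu, the gene of the secreted chaperone clusterin, was lower (log2 -1.01). The other scaling left 0 higher and 1 lower. The periurethral sum was higher per cell, with a median of 578 against 207 CPM, and rested on Upk1a, a uroplakin gene at 530 against 243 CPM (1.09, and 0.42 in the other scaling).

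The Msmb-rich cells with more and with less Sbp and Spink1 shared most of their profile. The 46 cells with at most 5% held a median of 22993 UMIs and the 43 with more than 5% a median of 26952 UMIs, which was not above the 27418 of the Sbp- and Spink1-rich cells. Msmb took a median of 5.41% and 3.08% of UMIs in them. Of 5912 genes compared, 14 were at least 2-fold higher in the cells with more than 5% (0.237%), among them Sbp and Spink1, which set the split, and 41 lower (0.694%). In the other scaling 30 were higher (0.465%) and 32 lower (0.496%), so the share of these genes that were higher went from 25.5% to 48.4%.

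In the 46 cells, Sbp and Spink1 together took a median of 1.35% of UMIs, close to the 1.33% of the 238 other ventral barcodes. Those barcodes were limited to at most 5% by the rule. They held a median of 5280 UMIs against 22993 in the 46 cells, so like shares mean unlike counts per barcode. The part of free RNA in this level was not tested. In the 43 cells Sbp and Spink1 together took a median of 16.2%. There Sbp reached 20.8% and Spink1 54.3% of the level of the Sbp- and Spink1-rich cells. Of further genes that were higher in that group, Spink5 reached 1.23%, Hdac9 7.06%, Pigr 10.5%, Csta1 13.9%, Nupr1 15.9% and Crabp1 17.0% of it. Trpv6 stood at 19.9 CPM in the 43 cells against 77.7 CPM in that group. In the 46 cells the shares of Spink5, Hdac9, Pigr, Csta1, Nupr1 and Crabp1 were 1.15%, 0.630%, 8.26%, 4.52%, 9.53% and 4.76%. In the immune barcodes the same shares were 2.92%, 10.3%, 3.47%, 3.96%, 3.47% and 2.38%. In the 238 other ventral barcodes they were 114%, 32.4%, 72.0%, 11.1%, 28.6% and 3.96%.

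The balance of Spink1 and Sbp also differed. The 43 cells held 2.90 Spink1 UMIs for each Sbp UMI, against 1.07 in the 46 cells, 1.11 in the Sbp- and Spink1-rich cells and 0.872 in the other ventral barcodes. Spink1 was over 2 UMIs for each Sbp UMI in 30 of the 43 cells, in 3 of the 46, and in 179 of the 1612 Sbp- and Spink1-rich cells. A higher Spink1 share thus marked most of these cells and a minority of the comparison group. Whether some of the 43 barcodes hold RNA of more than 1 cell was not tested, and no doublet caller was run.

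Pbsn differed widely between the 2 sets. It stood at 11089 CPM (10893 to 11288) in the cells with at most 5% Sbp and Spink1, with a median cell of 7034 CPM. In the cells with more it stood at 1914 CPM (1837 to 1994), with a median cell of 583 CPM and a UMI in 40 of 43. For each 100 Msmb UMIs there were 20.5 Pbsn UMIs in the former and 5.93 in the latter, whereas Defb50 gave 3.08 and 3.59 UMIs for each Msmb UMI. The difference in Pbsn was therefore larger than that in Msmb, and Defb50 ran with Msmb.

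Rnase1 went the same way, at 562 against 168 CPM, as did Pcp4, which stood at 250 CPM with a UMI in 30 of 46 cells against 32.3 CPM in 7 of 43. Acp6, a lysophosphatidic acid phosphatase, stood at 31.9 against 4.14 CPM and the tubulin gene Tuba1a at 26.4 against 3.31 CPM. Phf6 had the lowest log2 ratio among genes found in at least 25% of the cells of the higher set, at -3.06, but 73.4% of its 320 UMIs came from 1 cell. Higher in the cells with more Sbp and Spink1 were Hdac9 at 30.6 against 2.73 CPM (11.2-fold, 3.55 to 56.8), Trpv6 at 19.9 against 0.911 CPM and Crabp1 at 45.5 against 12.7 CPM, each of which is high in the Sbp- and Spink1-rich cells. Tacc1 and Mtmr4 also ranked high, with 80.8% and 72.7% of their UMIs from 1 cell, as did Vwa8 at 157 against 71.0 CPM. Spink5 (log2 0.05), Wfdc3 (-0.23), Hoxb13 (0.02), Krt18 (-0.01), Defb50 (-0.52) and Msmb (-0.74) did not reach 2-fold.

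Clustering on genes other than Msmb, Sbp and Spink1 put most of these cells together. Among 12 Leiden clusters of the 1939 ventral barcodes, 1 cluster held 87 of the 89 Msmb-rich cells (97.8%, 92.1 to 99.7%), with 45 of the 46 and 42 of the 43. That cluster had 95 cells, of which 91.6% were Msmb-rich. The other 8 all had more than 5% Sbp and Spink1, and their Msmb share ranged from 0 to 0.863% with a median of 0.0619%. The size of the cluster depended on the settings: it held 107 cells, 19 of them not Msmb-rich, at resolution 0.5, and 109 cells, 80.7% of them Msmb-rich, with random seed 1. The 2 Msmb-rich cells elsewhere fell 1 in a cluster led by Wfdc2, Cxcl17, Ppp1r1b and Krt4 and 1 in a cluster led by Stmn1 and Top2a, genes of dividing cells. Defb50, Pbsn and the other genes of the contrast took part in the clustering, so this is a description of the same values. Msmb, Sbp and Spink1 were also part of the totals to which each cell was scaled.

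Variation among the Msmb-rich cells differed from gene to gene. The coefficient of variation of the level per cell was 0.303 for Wfdc3, 0.330 for Defb50, 0.370 for Krt18, 0.458 for Hoxb13, 0.481 for Msmb, 0.518 for Defb1 and 0.544 for Krt8, and 1.35 for Pbsn. Among genes of at least 100 CPM, the most variable were Phf6 (6.79), Dync1i2 (2.81), Rtraf (2.11), Bcat2 (2.01), Ccn1 (1.71) and Pcp4 (1.62). For several genes 1 cell held most of the UMIs: all 99 UMIs of Traip came from 1 cell, and 95.8% of the 142 UMIs of Klhl23, and 235 of the 320 UMIs of Phf6 did too. Pcp4 was carried by 37 cells and Phf6 by 33.

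The proximal library held 155 Msmb-rich cells by the same rule, 4.22% (3.59 to 4.92%) of 3674 barcodes within the limits, and 152 Sbp- and Spink1-rich cells. These cells were deeper, with a median of 66759 UMIs and 7061 genes. Msmb took a median of 5.52% of their UMIs and Sbp and Spink1 0.127%. Only 6 of the 155 had more than 5% Sbp and Spink1, against 43 of 89 in the ventral library. The lowest ventral Msmb-rich cell stood at 0.830% Sbp and Spink1, beside the median of 1.33% among the other ventral barcodes.

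The same contrast in the proximal library gave 867 of 6798 genes higher (12.8%) and 78 lower (1.15%), or 190 (2.34%) and 399 (4.9%) in the other scaling. Of the 193 genes higher in the ventral library, 172 were higher in the proximal library, which is 89.1% of the former list and 19.8% of the latter. Of the 49 lower genes, 39 were lower in the proximal library, 79.6% of the former list and 50% of the latter. After each cell was thinned to 1000 UMIs, the first of these shares was 31.5% in place of 89.1%. Across 5473 genes the 2 sets of log2 ratios had a Pearson r of 0.81 and a Spearman rho of 0.64. These are across genes, which are not independent replicates, and the groups of both libraries were set by the same 3 genes. The direction of the main products was the same, with differences of another size for some: Defb50 stood at 99893 CPM in proximal Msmb-rich and 1818 CPM in proximal Sbp- and Spink1-rich cells, Defb1 at 6327 against 30.5 CPM, Pbsn at 17814 against 205 CPM, Rnase1 at 986 against 9.64 CPM and Wfdc3 at 6351 against 767 CPM. For folding in the endoplasmic reticulum, 21 of 23 genes were higher in the proximal contrast (median 1.66), and 10 in the other scaling.

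**Figure D5:**
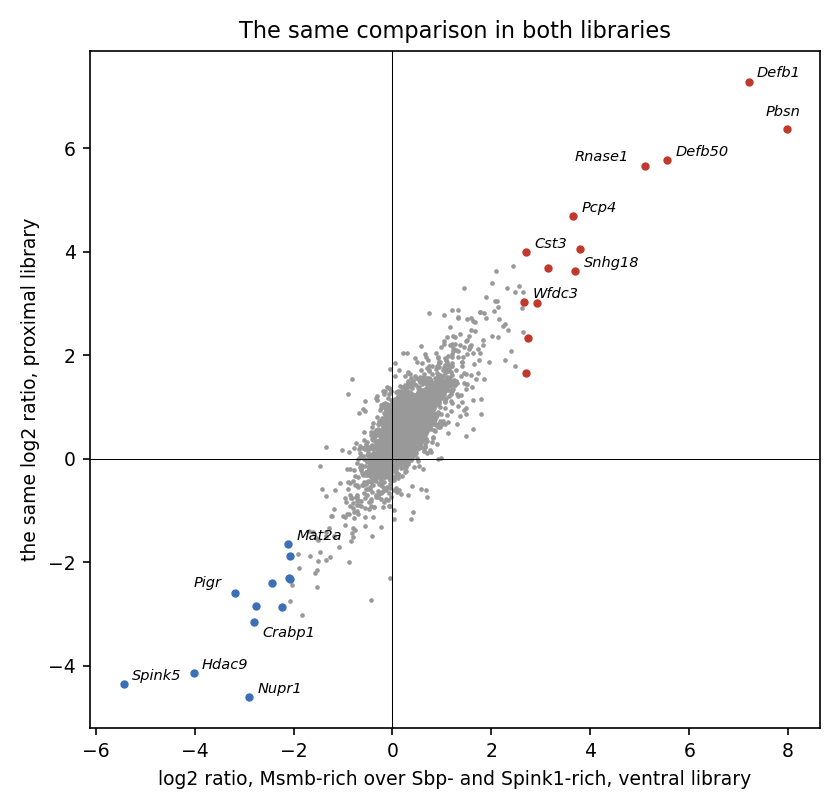
Log2 ratio of CPM + 10 between Msmb-rich and Sbp- and Spink1-rich cells in the ventral library (horizontal) and in the proximal library (vertical) for 5473 genes compared in both; coloured points are genes named in the text, red where higher and blue where lower in the ventral contrast. Pbsn, Defb1, Defb50 and Rnase1 lie high on both axes and Spink5 and Hdac9 low on both.

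Set side by side, Msmb-rich cells of the ventral and the proximal library differed in 39 genes that were at least 2-fold higher in the ventral cells (0.573%) and 693 lower (10.2%), of 6809 compared, with a median log2 ratio of -0.32. The other scaling gave 62 higher (0.864%) and 598 lower (8.34%). After cells were thinned to 1000 UMIs, to even out the depth of the libraries, 81 were higher and 328 lower. Each such difference may belong to the region, the kit version or the library, which cannot be told apart. Higher in the ventral cells were the metallothionein genes Mt2 (3264 against 746 CPM) and Mt1 (5439 against 2556), the carbonyl reductase gene Cbr2 (343 against 71.7), the glutathione peroxidase gene Gpx3 (1192 against 290), Fam25c (206 against 51.9), Vwa8 (116 against 28.0) and Crabp1 (29.9 against 2.58). Of the Vwa8 UMIs, 22.8% came from 1 cell.

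Among the genes lower in the ventral cells, Tgm4, the transglutaminase of seminal coagulation, had 0 UMIs in the ventral cells and 366 CPM in the proximal cells, at least 282-fold lower against a floor of 3 UMIs over the group. Pate9 (330 CPM) and the stem cell antigen gene Psca (136 CPM), which marks proximal luminal cells, had 0 UMIs too, at least 254-fold and 105-fold lower. The calcium-binding protein gene S100a6 had 3 UMIs, 1.30 against 297 CPM (ratio 228, 78.0 to 1107), and the matrix gene Thbs1 had 2 UMIs, 0.867 against 134 CPM (ratio 155, 42.7 to 1278). Fhl2, a LIM-domain protein, stood at 7.81 against 231 CPM (29.6-fold lower, 18.7 to 50). All 6 anterior-type luminal genes had 0 UMIs in the ventral cells, so the 3 that passed the limit on low levels did so through the proximal cells, and nothing is read from their count. Of 10 proximal luminal markers 7 were compared and 6 were lower, beside 10.2% of all genes, Psca among them through the same limit. The 10 summed to 138 CPM in the ventral and 595 CPM in the proximal cells, so others may have passed it the same way. Nothing is read from this count. The seminal vesicle genes Svs4 and Svs5 also had 0 UMIs in the ventral cells. In the proximal library Svs4 stood at 34.8 CPM in Msmb-rich and 34.4 CPM in Sbp- and Spink1-rich cells, and Svs5 at 54.4 and 55.7 CPM, so such secretions were at a like level in both kinds of cell. The part of free RNA in these differences was not tested.

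Of 25 immediate early and heat-shock genes compared, 21 were lower (median -1.55 beside -0.32 over all genes, of which 10.2% were lower), among them Hspa1b (-2.50), Dnaja1 (-2.05), Jund (-1.58) and Fos (-1.46). Of 11 interferon genes 9 were lower (median -1.30), among them Isg15 (-2.72). Of 9 genes of the prolactin receptor and Stat5 arm, 4 were compared and all 4 were lower, including Stat5a (-1.33) and Prlr (-1.27). Pbsn (-1.50), Rnase1 (-1.45), Pcp4 (-1.07) and Cst3 (-1.01) were lower as well, although each was high in Msmb-rich cells of both libraries against the Sbp- and Spink1-rich cells beside them.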

How the data were processed

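The authors deposited 1 matrix per library of UMI counts, genes by barcodes, with no normalization recorded. Per the file headers it comes from Cell Ranger 7.0.0, and mm10 is named in the submitters' processing notes, and the annotation and barcode filter are not given in the sources used here. Each library is 1 sample, and 0 columns of the tables had no sample. The cells, gene lists and rules were chosen with earlier results of these data known.

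UMIs were summed per group of cells and scaled to CPM, with exact Poisson intervals and exact conditional intervals of ratios at 95%, for counting error only. Genes named are the 12 highest and 12 lowest log2 ratios of CPM + 10 (6 and 6 between libraries and between the 2 sets of Msmb-rich cells) found in 25% of the cells of the higher group, leaving aside genes of ribosomal proteins, mitochondria, T cell receptors and immunoglobulins and those with Gm or Rik names, plus, from 33 gene lists, up to 4 examples each, and the 6 most variable genes. Other genes were named after their values were seen. Immune barcodes were chosen among barcodes outside both groups. No doublet caller was run. Leaving out the 5% of cells with most UMIs was among the alternatives, but it does not stand in for a doublet call.

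Clusters were made from 2000 variable genes without Msmb, Sbp and Spink1, with 30 principal components, 15 neighbours, Leiden resolution 1 and seed 0. Each cell was first scaled to 10000 UMIs over all genes, with Msmb, Sbp and Spink1 included. Tools were Python 3.11.15, numpy 2.4.6, scipy 1.17.1, pandas 2.3.3, scanpy 1.11.5, anndata 0.12.19, igraph 0.11.9 and matplotlib 3.10.9. The comparison was tested on simulated data with 200 genes changed 4-fold: of 5515 genes tested, 98% of the changed genes were called in the right direction and 0 unchanged genes were called, and 95.8% of intervals held the true ratio. The intervals cover counting error only, and differences in level between cells of a group are not part of them. How often genes are called wrongly where their UMIs gather in few cells was not tested. Traip, for example, had all 99 of its UMIs in the Msmb-rich ventral cells in 1 cell. Positions are from GENCODE M21, in which 32158 of 32285 gene identifiers were found, and sequences from RefSeq on GRCm38.p6. Of 13 genes (Msmb and the 12 highest), 8 had a promoter entry. Some genes are not reported here.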

Additional observations from a re-analysis of the deposited data

Results flagged for a closer look

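Of 282 ventral barcodes outside the gene and mitochondrial limits, 22 took at least 1% of their UMIs from Msmb, although none entered a comparison. That is 7.80% of them, in data that the comparisons did not use. Msmb is also the gene of the rule, so the share is a description. Under 500 genes were found in 17 of the 22, and 13 took over 10% of their UMIs from mitochondrial genes. The 2 barcodes with at least 500 genes and less than 0.5% mitochondrial UMIs held 4841 UMIs with 5.91% Msmb and 19291 UMIs with 4.73% Msmb.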

How the results depend on the processing

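No paired analysis was possible because each region is 1 library. The 193 genes higher than in Sbp- and Spink1-rich cells became 294 at an Msmb threshold of 5%, 295 without the cells over 5% Sbp and Spink1, 85 without Msmb, Sbp and Spink1 in the totals, 467 after thinning to 1000 UMIs, 350 with a pseudocount of 1 CPM and 115 at a mean of at least 50 CPM. The 49 lower became 81 at 5% Msmb, 260 in the other scaling, 99 with the pseudocount of 1 and 19 at 50 CPM. Of the genes higher in the ventral library, 31.5% were also higher in the proximal library after thinning. The 39 genes higher in ventral than in proximal Msmb-rich cells became 62 in the other scaling, 81 after thinning, 70 with the pseudocount of 1 and 25 at 50 CPM, and the 693 lower became 328 after thinning, 1386 with the pseudocount of 1 and 264 at 50 CPM. Between the sets with more and less Sbp and Spink1, the 14 higher became 30 in the other scaling, 7 without genes that have over 50% of their UMIs in 1 cell and 45 with the pseudocount of 1, and the 41 lower became 170 with that pseudocount. The causes were not tested. Alternatives chosen after seeing the data were that filter on single cells, for the comparisons within the ventral library, and every alternative for the overlap of the libraries and for the 2 sets of Msmb-rich cells. None of the genes named by the largest and smallest ratios changed direction under these alternatives, whereas the median of the luminal genes (0.02 to -0.66) and that of all genes (0.25 to -0.27) changed sign in the other scaling. Values of named genes stayed within their counting interval in 273 of 405 settings for the ventral contrast, 62 of 105 between libraries and 43 of 48 between the sets. Thinning leaves few UMIs per gene, so ratios of genes of low level are uncertain at that depth.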
